A study of Mus musculus with 6 samples.

Results

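The transcripts of 9 chemokine receptor genes, Ccr2, Ccr4, Ccr7, Ccr8, Ccr9, Cxcr3, Cxcr4, Cxcr6 and Cx3cr1, were followed in mouse spleen CD8+ T cells kept with or without neutrophil extracellular traps (NETs), which are released by neutrophils and consist of DNA decorated with histones and granule proteins. The genes were taken by symbol from tables that listed 22064 genes, of which 15605 had values. All 9 had values in all 6 samples. A filter on low counts left 12546 genes for testing, and 8 of the 9 receptor genes were among them. Cx3cr1 fell below the filter, so its values are given with no call. CD8+ T cells are the cytotoxic lymphocytes of adaptive immunity. The NET group held 3 samples of these cells exposed to NETs at 10 μg/mL, and the control group held 3 samples without NETs. Cells were from BALB/c mice and were collected after 48 h. Mice of this strain were bought as females aged 6 to 8 weeks, and NETs were gathered from neutrophils stimulated with the phorbol ester PMA. No genetic change was given for either group, and whether these cells were also stimulated through their antigen receptor was not given in the sources used here. Whether the samples of a group are from separate mice or cultures was also not given, so the replicate spread behind each p-value may be technical.

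Chemokine receptors are G protein-coupled receptors with which leukocytes sense gradients of chemokines, small secreted proteins that direct cell migration. They signal mainly through inhibitory G proteins to small GTPases and integrins, and receptor kinases, arrestins and RGS proteins switch that signal off. Naive CD8+ T cells rely on Ccr7 to enter lymph nodes, whereas activated and memory cells carry receptors such as Cxcr3, Cxcr6, Ccr2 and Ccr4 that serve entry into inflamed or peripheral tissue.

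The libraries held from 18696355 to 19425700 estimated counts each. The first principal component separated the NET from the control samples and carried 79.1% of the variance, and the second, with 8.57%, separated the 2 libraries numbered 1 from the remaining 4. The labelled cell type was checked against its markers. Cd8a, which encodes a chain of the CD8 coreceptor, stood at 1222 ± 85.8 CPM (counts scaled for library size with TMM factors, mean ± SD, n = 3) in control cells and at 818 ± 51.2 CPM with NETs. Of the 7 T cell markers tested, 6 were lower with NETs, and their summed level lay at 3830 to 4080 CPM in control samples against 2590 to 2920 CPM in NET samples. Over all genes tested, 22.3% were called higher with NETs and 22.3% lower, shares to set beside these and later list counts. Since NETs come from neutrophils, their markers were read as well. Of 5 neutrophil markers tested, 4 were higher with NETs and 0 were lower. The summed level of the list was 19.8 to 23.3 CPM in control and 31.5 to 36.8 CPM in NET samples. Most of the control sum was Cxcr2, which was not called, and Mpo. From low control levels, S100a8 rose from 0.123 to 4.29 CPM and S100a9 from 0.106 to 2.88 CPM. With at most 4 estimated counts in any control sample, S100a8 and S100a9 passed the filter on low counts only through the NET samples. Of the neutrophil markers too low to be tested, Elane and Ltf overlapped between the groups and Camp did not. The part of neutrophil RNA in the receptor levels was not tested. Of the natural killer cell list, only Eomes passed the filter, and it was not called. No marker gene with values in these lists was at 0 in all 6 samples, while Camp was at 0 in all 3 control samples. In bulk RNA of this kind, fewer cells of a type and less RNA per cell cannot be told apart.

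With NETs, Cxcr6, Ccr4 and Ccr2 rose between 2.53-fold and 3.27-fold, and Ccr9, Ccr7 and Cxcr4 fell, by far the most for Ccr9, which was 60.5-fold lower. Cxcr3 and Ccr8 did not pass the test. At a Benjamini-Hochberg adjusted p below 0.05 in edgeR's quasi-likelihood test, 3 of the 8 receptor genes tested were called higher and 3 lower. Over all genes tested, 44.6% were called, 22.3% in the higher and 22.3% in the lower direction. For 7 of the 8 receptor genes tested, NET and control CPM values had no overlap, which held for 54.7% of all genes tested. An absolute log2 fold change above 1 was seen for 6 of the 8 receptor genes and for 13.5% of all genes, and the median absolute log2 fold change was 1.42 among the 8 against 0.319 among all genes. With so few genes, these shares describe the 8 genes and were not tested against the rest.

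**Figure D1:**
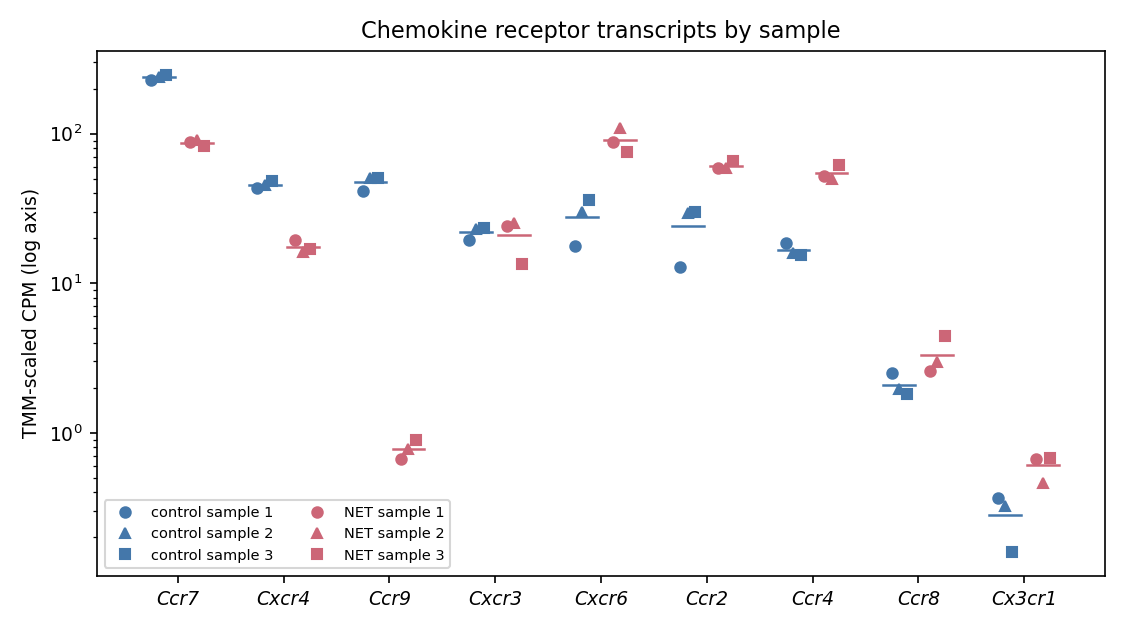
TMM-scaled CPM on a log axis for each of the 9 chemokine receptor genes, with 1 point per sample (blue, control; red, NET; the symbol gives the sample number) and a line at each group mean. Ccr7, Cxcr4 and Ccr9 lie lower in all NET samples, Cxcr6, Ccr2 and Ccr4 lie higher, and the groups overlap for Cxcr3, where NET sample 3 is at 13.5 CPM.

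Windows around the annotated starts of 3 of the called genes are shown because Ccr9 and Cxcr6 neighbour each other on chromosome 9 and moved in opposite directions, and Cxcr4 fell with Ccr9 from a start of different base composition. Each window is from RefSeq (GRCm38.p6, the assembly that mm10 names), spans 250 bases before to 50 bases after the start, and is read in the direction of the gene. Windows were found for 8 of the 9 genes. Capitals mark CACCC (the core bound by KLF factors), CTTTGA (TCF and LEF factors) or TGTGGT (RUNX factors), each searched on both strands, so that a match on the opposite strand appears as its reverse complement.
Ccr9 (chr9:123766961-123767260, plus strand): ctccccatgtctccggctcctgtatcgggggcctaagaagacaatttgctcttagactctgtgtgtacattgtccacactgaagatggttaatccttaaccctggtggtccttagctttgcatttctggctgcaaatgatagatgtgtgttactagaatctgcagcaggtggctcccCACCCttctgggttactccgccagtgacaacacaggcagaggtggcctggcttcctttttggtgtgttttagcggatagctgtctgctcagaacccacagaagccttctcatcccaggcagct
Cxcr6 (chr9:123806227-123806526, plus strand): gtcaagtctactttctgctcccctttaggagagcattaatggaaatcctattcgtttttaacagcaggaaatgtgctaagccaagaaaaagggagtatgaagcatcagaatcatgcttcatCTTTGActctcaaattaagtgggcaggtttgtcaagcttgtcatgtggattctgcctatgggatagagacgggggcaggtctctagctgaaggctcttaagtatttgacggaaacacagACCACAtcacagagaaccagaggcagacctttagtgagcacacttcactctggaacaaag
Cxcr4 (chr1:128592250-128592549, minus strand): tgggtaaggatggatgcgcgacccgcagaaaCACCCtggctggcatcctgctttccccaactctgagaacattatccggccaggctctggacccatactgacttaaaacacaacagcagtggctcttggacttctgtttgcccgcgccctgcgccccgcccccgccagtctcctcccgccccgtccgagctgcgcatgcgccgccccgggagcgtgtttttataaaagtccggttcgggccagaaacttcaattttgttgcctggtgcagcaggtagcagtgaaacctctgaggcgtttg

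The Ccr9 window holds CACCC with its first base at -73 from the start, and the Cxcr4 window holds it at -219. In the Cxcr6 window, CTTTGA begins at -129 and TGTGGT lies on the opposite strand at -10. CACCC was present in 5 of the 8 receptor windows and in 57.5% of 32851 windows over all genes. TGTGGT was present in 3 of the 8 and in 16.8% of all windows, and CTTTGA in 2 of the 8 and in 16.0% of all windows. The Ccr4 window, which holds CACCC and CTTTGA, lies at a start 8932 bases from the outermost RefSeq start of that gene. For GATA factors, the hexamer AGATAA was found in 2 of the 8 and in 11.2% of all windows. For T-box factors, GTGTGA was found in 1 of the 8 and in 14.5% of all windows. The nuclear receptor half-site AGGTCA was found in 0 of the 8 and in 16.3% of all windows. The Cxcr4 window was the richest of the 8 in G and C, at 59.3%, and held 20 CpG dinucleotides, against 1 to 5 in the other 7 windows and a median of 7 over all windows. These matches describe letters in a window, not binding.

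Ccr7 is the receptor for Ccl19 and Ccl21 that takes naive T cells into lymph nodes (NCBI gene 12775, chromosome 11, 99144199 to 99155077, minus strand). It had the highest level of the 9 genes in control cells. Its CPM was 230.3, 239 and 248 in control samples 1 to 3 and 87.8, 91.3 and 82.7 in NET samples 1 to 3. The NET values lay close together, all far below the lowest control value. Ccr7 fell from 239 ± 9.08 to 87.3 ± 4.30 CPM (SD, n = 3), 2.74-fold lower, or -1.45 ± 0.09 in log2 fold change (SE, edgeR adjusted p = 1.00e-06). Leaving out each library in turn moved that log2 fold change only between -1.48 and -1.42.

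Cxcr4 binds Cxcl12 and holds lymphocytes in bone marrow and lymphoid tissue (NCBI gene 12767, chromosome 1, 128588199 to 128592299, minus strand). Control samples 1 to 3 gave 43.2, 45.3 and 48.6 CPM, and NET samples 1 to 3 gave 19.4, 16.2 and 16.9 CPM. Every NET sample was below every control sample, and the spread within each group was small beside the gap. The fall was from 45.7 ± 2.72 to 17.5 ± 1.69 CPM (SD, n = 3), 2.62-fold, or -1.39 ± 0.11 in log2 fold change (SE, edgeR adjusted p = 4.98e-06). Ccr7 and Cxcr4 kept nearly 1 ratio: Ccr7 FPKM divided by Cxcr4 FPKM was 4.68 to 4.89 in control samples and 4.15 to 5.17 in NET samples, so the groups overlapped on it.

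Ccr9 guides lymphocytes to Ccl25 in the thymus and small intestine (NCBI gene 12769, chromosome 9, 123767211 to 123783457, plus strand). Its CPM was 41.1, 50.5 and 50.9 in control samples 1 to 3, against 0.670, 0.775 and 0.893 in NET samples 1 to 3. The NET values rested on 13.0, 15.4 and 16.8 estimated counts, so the receptor was near the limit of detection there, while control samples held 791 to 954 estimated counts. Ccr9 fell from 47.5 ± 5.52 to 0.780 ± 0.112 CPM (SD, n = 3), which is -5.92 ± 0.17 in log2 fold change (SE, edgeR adjusted p = 1.42e-08). On log2(FPKM + 1), a scale that understates changes of low genes, its log2 fold change was -3.33.

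B cells also carry Ccr7 and Cxcr4. Of 9 B cell markers tested, 8 were higher with NETs and 0 were lower, and their summed level lay at 28.5 to 36.6 CPM in control and 106 to 166 CPM in NET samples. Ebf1, 1 of these markers, passed the filter on low counts only through the NET samples, with 11, 17 and 9 estimated counts in control samples 1 to 3. This list thus moved opposite to Ccr7 and Cxcr4, and its part in their levels was not tested.

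Cxcr6 is the receptor for Cxcl16 and is carried by effector and tissue-resident CD8+ T cells (NCBI gene 80901, chromosome 9, 123806477 to 123811754, plus strand). Its CPM was 17.7, 29.8 and 36.2 in control samples 1 to 3 and 87.5, 109 and 76.0 in NET samples 1 to 3. The groups did not overlap, and the lowest control value was that of sample 1. Cxcr6 rose from 27.9 ± 9.37 to 90.9 ± 16.8 CPM (SD, n = 3), 3.26-fold, or 1.70 ± 0.23 in log2 fold change (SE, edgeR adjusted p = 2.10e-04). Without control sample 1 the log2 fold change was 1.46, and without both libraries numbered 1 it was 1.49.

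Ccr4 binds Ccl17 and Ccl22 and serves skin homing and type 2 or regulatory T cells (NCBI gene 12773, chromosome 9, 114490316 to 114505476, minus strand). Control samples 1 to 3 had 18.6, 16.1 and 15.4 CPM, and NET samples 1 to 3 had 52.5, 49.5 and 61.7 CPM. All NET samples stood well above all control samples. Ccr4 rose from 16.7 ± 1.67 to 54.6 ± 6.38 CPM (SD, n = 3), 3.27-fold, or 1.71 ± 0.12 in log2 fold change (SE, edgeR adjusted p = 2.80e-06).

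Ccr2, a receptor for Ccl2 and Ccl7 best known on monocytes and also carried by effector and memory T cells (NCBI gene 12772, chromosome 9, 124101918 to 124109140, plus strand), had 12.9, 29.4 and 30.1 CPM in control samples 1 to 3. In NET samples 1 to 3 it had 58.8, 58.6 and 65.3 CPM. The NET samples agreed closely and did not overlap with the controls, among which sample 1 was low, as it was for Cxcr6. Ccr2 rose from 24.1 ± 9.76 to 60.9 ± 3.81 CPM (SD, n = 3), 2.53-fold, or 1.34 ± 0.25 in log2 fold change (SE, edgeR adjusted p = 0.00184). Without control sample 1 the log2 fold change was 1.03 with an edgeR adjusted p of 3.92e-05. Chemokine receptor genes resemble each other in sequence, so some reads of Ccr2 may be split with a relative not analysed here, and its level is uncertain to that extent.

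Of 7 macrophage and monocyte markers tested, 5 were higher with NETs and 0 were lower, with a summed level of 51.9 to 77.6 CPM in control and 86.4 to 101 CPM in NET samples. Lyz2 was the largest part of that sum, at 35.6 ± 11.2 CPM in control and 39.4 ± 2.62 CPM in NET samples (SD, n = 3). Neither Lyz2 nor Csf1r was called. Cd68 rose from 9.38 to 18.7 CPM and Itgam from 9.03 to 20.4 CPM. Fcgr1, also called, passed the filter on low counts only through the NET samples. The summed level and the called markers moved in the same direction as Ccr2, and the part of these cells in the Ccr2 level was not tested. For the CD4 and regulatory T cell list, which includes cells that carry Ccr4 and Ccr8, 5 of 6 markers tested were lower with NETs and 1 was higher, and the summed level lay at 382 to 530 CPM in control and 165 to 185 CPM in NET samples. Most of the control sum was Ikzf2, which fell from 234 to 36.9 CPM, and Ctla4, which fell from 142 to 67.2 CPM. Cd4 fell from 46.3 to 28.4 CPM, and Zbtb7b, the 1 marker that was higher, rose from 24.0 to 32.2 CPM. The summed level moved opposite to Ccr4, and the part of these cells in the Ccr4 level was not tested.

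Cxcr3 answers the interferon-induced chemokines Cxcl9 and Cxcl10 and marks effector T cells (NCBI gene 12766, X chromosome, 101731535 to 101734147, minus strand). It was at 19.6, 23.0 and 23.3 CPM in control samples 1 to 3 and at 24.0, 25.4 and 13.5 CPM in NET samples 1 to 3. The groups overlapped, with NET sample 3 below and the other 2 NET samples above all controls. The means were 22.0 ± 2.06 and 21.0 ± 6.52 CPM (SD, n = 3), and the log2 fold change was -0.07 ± 0.21 (SE, edgeR adjusted p = 0.819). Without NET sample 3 it turned to 0.17 (edgeR adjusted p = 0.269).

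Ccr8, the receptor for Ccl1 that is found on regulatory and skin-resident T cells (NCBI gene 12776, chromosome 9, 120092133 to 120094906, plus strand), was low throughout. It had 2.50, 1.95 and 1.82 CPM in control samples 1 to 3 and 2.58, 3.00 and 4.41 CPM in NET samples 1 to 3. The groups did not overlap, although NET sample 1 was close to control sample 1. The means were 2.09 ± 0.361 and 3.33 ± 0.962 CPM (SD, n = 3), with a log2 fold change of 0.67 ± 0.25 (SE) whose edgeR adjusted p of 0.0508 just missed the threshold. Under 19 alternative settings its adjusted p ranged from 0.0210 to 0.181 and passed in 10, so its call depended on the processing.

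Cx3cr1, the receptor for Cx3cl1 that marks highly cytotoxic effector CD8+ T cells (NCBI gene 13051, chromosome 9, 120048683 to 120068296, minus strand), was the lowest of the 9. Control samples 1 to 3 held 7.48, 6.39 and 3.18 estimated counts, and NET samples 1 to 3 held 12.6, 9.46 and 12.7. In CPM these were 0.364, 0.325 and 0.160 against 0.670, 0.465 and 0.683, so that the groups did not overlap but all values were near the floor. Without the filter, its log2 fold change was 1.08 with an edgeR adjusted p of 0.0791. Of 6 alternatives that gave it a value, 1 called it, limma on log2(FPKM + 1) without a filter (log2 fold change 0.11, adjusted p = 0.0430). An unlisted long noncoding RNA gene, Gm33858, shares 78 exon bases with it on the opposite strand, and whether counting used the strand was not given in the sources used here.

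**Figure D2:**
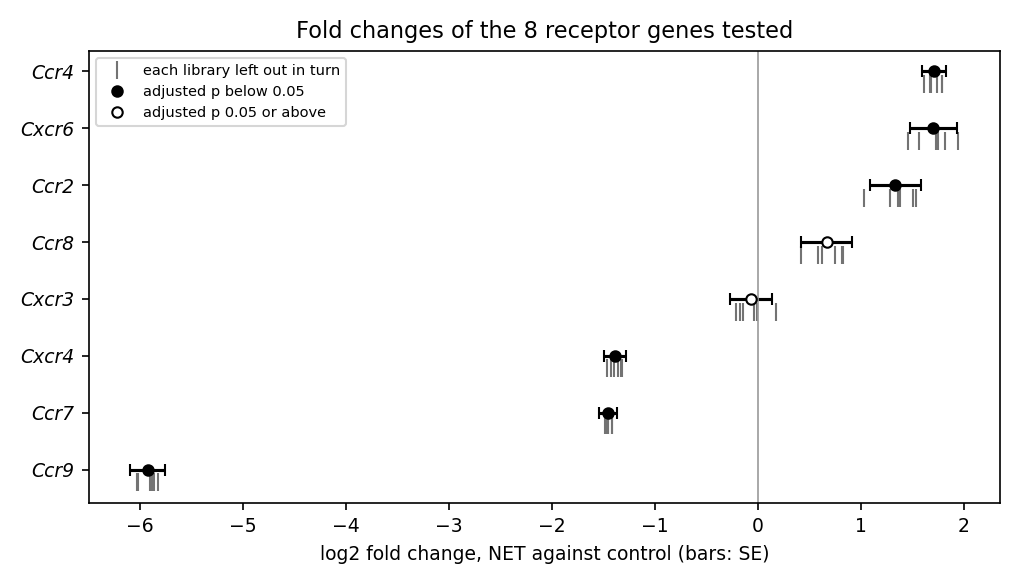
Log2 fold change of NET against control for the 8 receptor genes tested (points, with SE bars; filled where the edgeR adjusted p was below 0.05), and the value with each library left out in turn (grey ticks). The 6 called genes keep their side of 0 in every tick, while Cxcr3 crosses 0 without NET sample 3.

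FPKM values, which are scaled for transcript length, allow levels to be set side by side between genes. In control cells the order by mean FPKM was Ccr7 (122.7 ± 2.84, SD, n = 3), Cxcr4 (25.6 ± 1.17), Cxcr6 (14.9 ± 4.81), Cxcr3 (13.9 ± 1.09), Ccr9 (10.9 ± 1.08), Ccr2 (6.60 ± 2.60), Ccr4 (6.07 ± 0.682), Ccr8 (1.87 ± 0.355) and Cx3cr1 (0.0800 ± 0.0361). The ranges of Cxcr6 and Cxcr3 overlapped in that order, as did those of Ccr2 and Ccr4. With NETs the order was Cxcr6 (49.3 ± 8.68), Ccr7 (45.4 ± 1.99), Ccr4 (20.3 ± 2.45), Ccr2 (17.1 ± 1.15), Cxcr3 (13.5 ± 4.14), Cxcr4 (9.92 ± 1.03), Ccr8 (3.01 ± 0.879), Ccr9 (0.187 ± 0.0252) and Cx3cr1 (0.167 ± 0.0231). There the neighbours Cxcr6 and Ccr7, Ccr4 and Ccr2, Cxcr3 and Cxcr4, and Ccr9 and Cx3cr1 overlapped.

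The make-up of the 9 receptor transcripts shifted in all NET samples. Ccr7 held 60.6 ± 2.42% of their summed FPKM in control and 28.6 ± 0.598% in NET samples (SD, n = 3). The share of Cxcr6 was 7.27 ± 1.98% in control and 30.9 ± 3.55% in NET samples. Ccr4 stood at 12.9 ± 2.37% in NET samples against 3.02 ± 0.522% in controls, and Ccr2 at 10.8 ± 1.40% against 3.22 ± 1.15%. Cxcr4 held 12.6 ± 0.321% in control and 6.27 ± 0.797% in NET samples, and Ccr9 held 5.38 ± 0.281% and 0.118 ± 0.0209%. The summed FPKM of the 9 was 190.0, 204.5 and 213.5 in control samples 1 to 3 and 159, 168 and 149 in NET samples 1 to 3, lower in every NET sample than in any control sample. Ccr7 FPKM divided by Cxcr6 FPKM was 12.4, 7.68 and 6.57 in control samples 1 to 3 and 0.960, 0.802 and 1.04 in NET samples 1 to 3. Cxcr6 FPKM divided by Cxcr3 FPKM, a ratio of a pair of receptors of effector cells, was 0.765 to 1.31 in control and 3.08 to 4.76 in NET samples. These shares and ratios follow from the levels above and were not tested on their own.

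**Figure D3:**
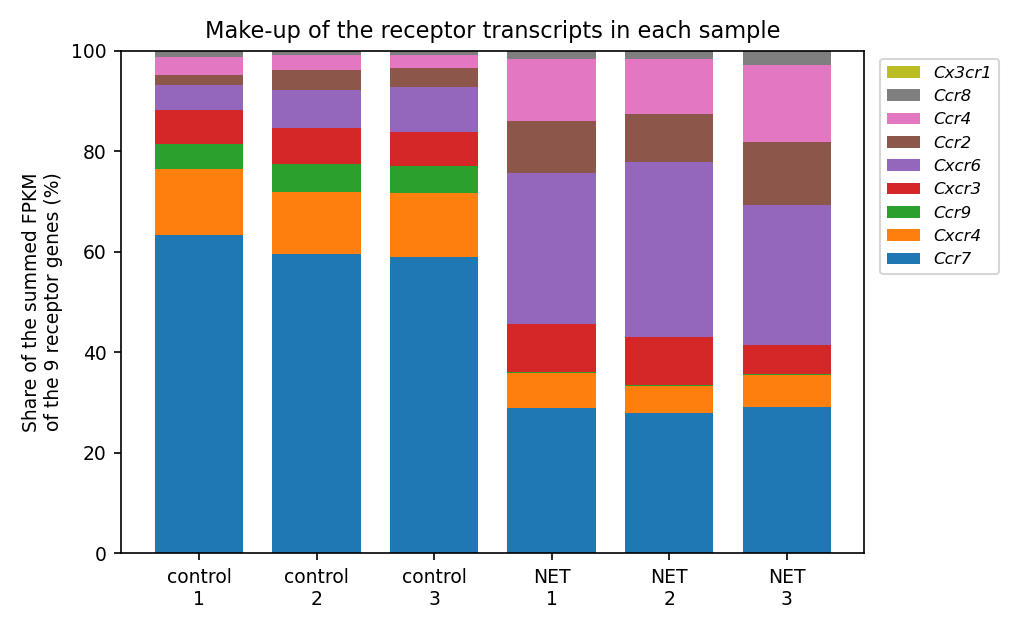
Share of each of the 9 receptor genes in their summed FPKM (%), 1 stacked bar per sample. Ccr7 fills 59.0% to 63.4% of the control bars and 27.9% to 29.0% of the NET bars, where Cxcr6 fills 27.9% to 34.8%.

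Of the 9 genes, 6 lie on chromosome 9, and 3 of these, Ccr9, Cxcr6 and Ccr2, belong to a cluster of receptor genes within 414737 bases from Lztfl1 to Ccr2 (mm10, chromosome 9, 123694404 to 124109140). The fall of Ccr9 and the rise of Cxcr6 came from genes whose starts are 39.3 kb apart. Fyco1, an autophagy adaptor gene on the opposite strand that spans Cxcr6 without sharing an exon base, stood at 41.3 to 46.7 CPM in all 6 samples, or -0.08 ± 0.09 in log2 fold change (SE, edgeR adjusted p = 0.506). Lztfl1, a ciliary trafficking gene on the other side of Ccr9, fell from 51.7 ± 12.7 to 25.5 ± 3.46 CPM (SD, n = 3, edgeR adjusted p = 0.00118). Further along, the receptor genes Xcr1, Ccr1 and Ccr2 were all called higher, with log2 fold changes of 2.80, 2.49 and 1.34, while Ccr3 and Ccr1l1 were too low to be tested. Ccr8 and Cx3cr1 are neighbours in a second stretch of 46224 bases on the same chromosome.

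**Figure D4:**
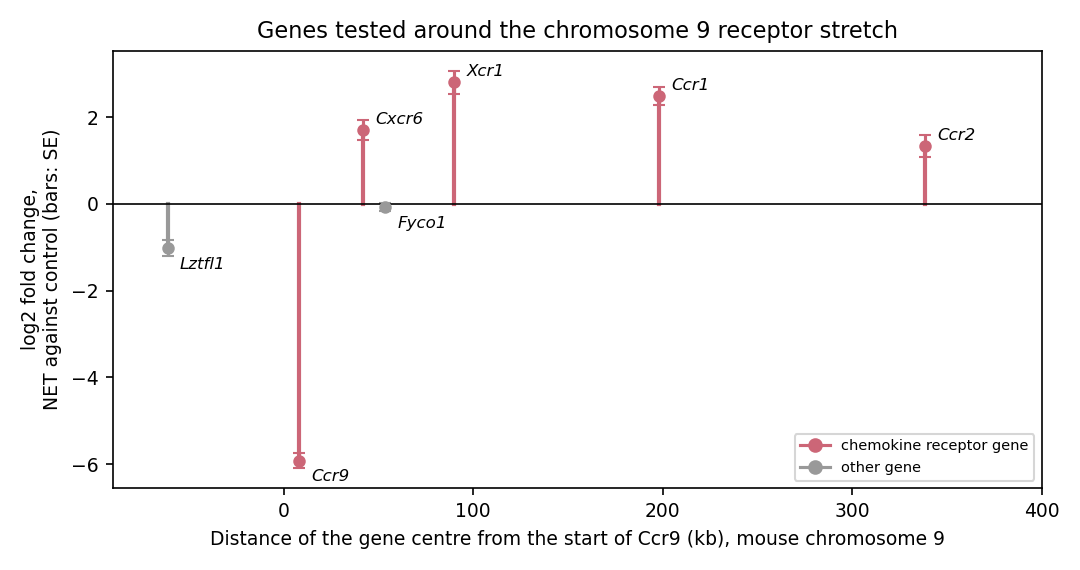
Log2 fold change of NET against control (SE bars) for the genes tested from Lztfl1 to Ccr2, placed by the distance of the gene centre from the Ccr9 start in kb on mouse chromosome 9 (red, chemokine receptor genes; grey, other genes). Ccr9 is at -5.92, and the 4 other receptor genes tested in the stretch lie above 0.

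By the root mean square difference of centred log2 CPM over the 6 samples, among 12545 other genes tested, the genes nearest in pattern to Ccr4, the called gene with the largest fitted rise, were Bcr (0.0458), Cfp (0.0476) and Bcl2l1 (0.0512). The fitted rises of Ccr4 and Cxcr6 were nearly equal, and that of Cxcr6 was the larger in 8 of 19 alternatives. Bcl2l1 encodes the survival protein Bcl-xL, Bcr a GTPase regulator and Cfp the complement factor properdin. Bcl2l1 went from 70.6 to 236 CPM. For Ccr9, the nearest genes were Prrt1 (0.459), Xcl1 (0.514) and Cd7 (0.522), all farther away than those of Ccr4. The difference is not scaled to the size of a change, so it cannot show how far other genes shared the fall of Ccr9. Xcl1 encodes the chemokine that binds Xcr1, and it went from 57.3 to 0.467 CPM.

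Among 14 other chemokine receptor genes, 13 had values and 7 were tested. Of the 7 tested, 5 were higher with NETs and 0 were lower, beside 22.3% called higher over all genes. Their median log2 fold change was 2.00, the value of Ccr10, against -0.01 over all genes tested. Ccr6, a receptor for Ccl20 on B cells and T helper 17 cells, rose from 0.972 ± 0.200 to 8.18 ± 2.06 CPM (SD, n = 3), a log2 fold change of 3.06. Xcr1, the Xcl1 receptor of cross-presenting dendritic cells, rose from 1.43 ± 0.370 to 10.0 ± 2.84 CPM, and Ccr1, an inflammatory receptor of myeloid and T cells, from 3.21 ± 0.651 to 18.1 ± 4.18 CPM. Ccr10 and the non-signalling receptor gene Ccrl2 were higher by 2.00 and 0.69 on the log2 scale. Ccr10 held 7, 2 and 1 estimated counts in control samples 1 to 3 and 18, 14 and 10 in NET samples 1 to 3. It thus passed the filter on low counts only through the NET samples, where it was higher, and its fold change is imprecise. Cxcr2 and Cxcr5 were not called (log2 fold change -0.35 and 0.47). B cell markers, given above, moved in the same direction as Ccr6. The part of B cells in the Ccr6 level was not tested. Apart from Xcr1 itself, 3 dendritic cell markers were tested, of which Zbtb46 was higher and Itgax lower, by 0.81 and 0.95 on the log2 scale. The summed level of the list without Xcr1 was 12.5 to 16.2 CPM in control and 10.6 to 14.0 CPM in NET samples. Itgax made up most of that sum in control, at 9.92 ± 2.50 CPM (SD, n = 3). Clec9a and Siglech were too low to be tested. Clec9a held 1, 1 and 2 estimated counts in control samples 1 to 3 and 0, 2 and 2 in NET samples 1 to 3. The part of dendritic cells in the Xcr1 level was not tested.

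The cells also held transcripts of some ligands of these receptors, all at low levels. Of 16 ligand genes, 12 had values and 8 were tested. Of the 8 tested, 4 were higher and 1 was lower (median log2 fold change 0.70), beside 44.6% called over all genes. The Ccr2 ligand gene Ccl2 rose from 0.516 ± 0.211 to 8.09 ± 1.14 CPM (SD, n = 3), by 3.96 on the log2 scale. Ccl7, another Ccr2 ligand gene, rose from 0.197 ± 0.115 to 2.98 ± 0.0610 CPM, by 3.89. The Cxcr3 ligands Cxcl10 and Cxcl9 rose by 1.65 and 0.92 on the log2 scale. Against the others, the Ccr8 ligand Ccl1 fell from 2.56 ± 0.668 to 0.174 ± 0.109 CPM, a log2 fold change of -3.83. Ccl2 and Ccl7 passed the filter on low counts only through the NET samples, and Ccl1 only through the control samples. In control samples 1 to 3, Ccl2 held 8, 14 and 7 estimated counts and Ccl7 held 2, 6 and 3. Ccl1 held 4, 1 and 5 in NET samples 1 to 3. The fold changes of Ccl2, Ccl7 and Ccl1 are therefore imprecise. The Ccr4 ligand Ccl22 stood at 5.17 ± 0.651 CPM in control and 5.08 ± 1.11 CPM in NET samples and was not called, nor were Ccl25 and Cxcl16, the ligands of Ccr9 and Cxcr6 (log2 fold changes 0.40 and 0.47). Ccl2 and Ccl7 are also made by monocytes and macrophages, whose markers are given above, and the part of those cells was not tested.

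Downstream of the receptors, 26 of 27 signalling genes were tested, with 3 higher and 7 lower (median log2 fold change -0.08), no larger a share than the 44.6% called over all genes. Prex1, the Rac exchange factor driven by G protein subunits, fell from 288 ± 21.9 to 80.2 ± 6.47 CPM (SD, n = 3), a log2 fold change of -1.84 ± 0.10 (SE). The kinase gene Stk4, which acts in integrin activation, and the phospholipase gene Plcb2 fell by 0.60 and 0.54, and the focal adhesion kinase relative Ptk2b rose by 0.75. Of 15 genes that dampen receptor signalling, 4 were higher and 3 lower (median log2 fold change -0.02), close to that same 44.6%. Rgs1, which speeds up the shut-off of G proteins, rose from 30.4 ± 2.96 to 281 ± 48.5 CPM. Its relative Rgs2 rose as well, to 13.2 ± 1.99 CPM against 3.95 ± 0.963 CPM in controls. Arrb1, an arrestin, and the receptor kinase gene Grk6 fell by 0.67 and 0.69 on the log2 scale.

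Other genes of homing and tissue egress moved both ways, with 7 higher and 6 lower of 15 tested (median log2 fold change 0.41). Over all genes, 44.6% were called in either direction. The egress receptor gene S1pr1 fell from 68.6 ± 11.4 to 9.71 ± 0.364 CPM (SD, n = 3), and the integrin gene Itgae fell from 71.6 ± 10.5 to 13.5 ± 0.471 CPM. Itga4, another integrin gene, stood at 220 ± 42.3 CPM in control and 33.1 ± 4.27 CPM in NET samples, and its fall was also called. Itgb7, which pairs with either of them, was also lower, at a log2 fold change of -2.53, but its deposited values were identical to those of Bcl2, so its own level is uncertain. In the other direction, the activation marker and egress inhibitor gene Cd69 rose from 80.1 ± 10.5 to 221 ± 25.4 CPM, and the integrin gene Itgal, a subunit of LFA-1, rose by 1.13 on the log2 scale. Cd44, the hyaluronan receptor gene, and Fut7, a fucosyltransferase gene, rose by 1.33 and 1.66. Among regulators of receptor genes, 10 of 19 tested were higher and 6 lower (median log2 fold change 0.40), beside that same 44.6%. Klf2, a transcription factor gene of naive T cells, fell by 3.40 on the log2 scale, and Tcf7, another such gene, fell from 565 ± 53.5 to 89.1 ± 11.5 CPM. Foxo1, a factor that sustains Ccr7 and Klf2 in mouse T cells, fell by 1.39 on the log2 scale. Rxra, a nuclear receptor gene, and Id2, an inhibitor of E proteins in effector cells, rose by 4.51 and 2.35 on the log2 scale, Rxra from 18.1 ± 3.93 to 413 ± 58.3 CPM. Lef1, a relative of Tcf7, went the other way and rose by 0.54, and Tbx21, a factor gene of effector cells, fell by 0.63. Lef1 and Tbx21 were picked after values were seen, and their changes were small beside those of Klf2, Tcf7 and Id2. The other called genes of this list were Bhlhe40, Rara, Prdm1, Zeb2, Gata3, Irf4 and Batf, all higher. Id3 and Bcl6 were called lower. Whether any of these genes acts on the receptor genes in these cells was not tested.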

How the data were processed

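Poly(A) RNA libraries of 3 NET and 3 control samples were prepared with dUTP strand marking and read from both ends. The submitters' processing notes name the build mm10, and the aligner, counter, annotation and use of strand are not given in the sources used here. From these reads the authors deposited estimated counts per gene, not scaled between libraries, and FPKM values scaled for transcript length and library size. Each of the 22064 listed genes carries its NCBI number. Genes blank in all 6 samples (6459) were treated as missing, not as 0.

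Estimated counts were rounded, filtered with filterByExpr (12546 genes left) and scaled by TMM. Groups were compared with the two-sided quasi-likelihood F test of edgeR 4.0.16 under R 4.3.3, using a model of group alone and Benjamini-Hochberg adjustment over all genes tested at a threshold of 0.05. Standard errors were taken from the F statistic. Coordinates and promoter windows were from RefSeq tables of GRCm38.p6. Control samples 2 and 3 differed by a chi-square per degree of freedom of 3.05 and other replicate pairs by 15.6 to 27.0, so no pair was taken as 1 library. Alternatives were other scalings and filters, DESeq2 1.42.0, limma 3.58.1 (voom, or log2 FPKM plus 1 or 0.1), a replicate block, leaving out each library or both numbered 1, and a fold threshold of 0.58.

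The receptor genes, gene lists and marker lists were chosen with earlier results of these data known. All 9 receptor genes were named. Of each list, up to 4 genes with the smallest adjusted p were named, with those against the direction of the rest where at most 2, and every called gene among other receptors and ligands. For the called receptor genes with the largest rise and fall, the 3 genes nearest in pattern were named. Foxo1, Lef1, Tbx21, Lztfl1, Fyco1, Cd8a, Camp, Eomes, Cd69, Itgal, Cd44 and Fut7 fall outside this rule. The remaining called regulators of receptor genes and the markers Ebf1, Elane, Ltf, Lyz2, Csf1r, Clec9a and Siglech also fall outside it. So do the uncalled receptor and ligand genes and the motifs. All of these were chosen after values were seen. Results on some genes are not reported here, and these genes were left out of the lists.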

Additional observations from a re-analysis of the deposited data

How the results depend on the processing

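Ccr2, Ccr4, Ccr7, Ccr9, Cxcr4 and Cxcr6 kept their direction and their call under all 19 alternatives, and Cxcr3 was called under 0 of 19. Leaving out each library in turn gave 3 to 4 receptor genes called higher and 3 lower, and 2231 to 2901 genes higher and 2104 to 2893 lower over the whole table. The log2 fold change of Cxcr3 ranged from -0.21 to 0.17 when each library was left out, turning positive only without NET sample 3, and the cause was not tested. Ccr8 was the fourth gene called higher in 10 of its 19 alternatives. Requiring a log2 fold change above 0.58 as well left 1679 genes higher and 1488 lower over the whole table, and 3 higher and 3 lower among the receptor genes. The replicate numbers were not taken to pair the samples: deviations of the pairs numbered 1, 2 and 3 correlated at 0.38, 0.12 and 0.03. The pair numbered 1 correlated best, but NET samples 2 and 3 did not correlate best with their own number. With the replicate number as a block, 3484 genes were higher and 3534 lower, and Ccr8 had a log2 fold change of 0.65 (edgeR adjusted p = 0.0465), while no other receptor gene changed its call. Other scalings moved the median of all genes by at most 0.05 on the log2 scale. Ccr9 with NETs and Cx3cr1 in every sample rested on fewer than 20 estimated counts per library, so their levels there are imprecise.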
